A study of Mus musculus with 12 samples.

Results

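Lysosomes break down what a cell takes in and what it discards of itself, and the genes that make them are described here in mouse mTECs with and without fumarate hydratase (Fh1) silencing and TGF-β1. The set is a list of 41 genes, taken by name but chosen with earlier results of these data known. It holds 3 transcription factors of the MiT/TFE family, 4 lysosomal membrane proteins and 8 genes of cathepsins and the protective protein. It also holds 7 genes of glycosidases and their helpers, 10 subunits of the V-ATPase proton pump, 4 ATG8 proteins and 5 genes of autophagosome formation. Of the 41 genes, 40 were among the 15802 genes listed in both deposited expression tables and 39 passed the filter on low counts. The label fits the roles of the genes, and nearly all of them were well detected.

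As background, cathepsins and glycosidases reach the lysosome through the secretory pathway and work in an acid lumen. The V-ATPase makes that lumen acid: its membrane sector V0 conducts protons and its cytosolic sector V1 hydrolyses ATP. In autophagy, ATG8 proteins (LC3 and GABARAP) are attached to a growing membrane that encloses cytoplasm and later fuses with the lysosome. TFEB, TFE3 and MITF bind E-box elements in many lysosomal and autophagy genes, and are held in the cytosol when the kinase mTORC1 is active. Tubular cells of the kidney take up filtered protein and degrade it in lysosomes.

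RNA sequencing gave 12 libraries in 4 groups of 3: Fh1-silenced cells with TGF-β1 (KD+TGF-β1), control cells with TGF-β1 (NC+TGF-β1), silenced cells without it (KD) and control cells without it (NC). Fumarate hydratase is the enzyme of the tricarboxylic acid cycle that makes malate, and TGF-β1 is a cytokine that drives fibrotic change. The series asks how loss of the enzyme bears on renal fibrosis. All groups are of the cell line that the labels call mTEC, a name they do not spell out and that is read here, from the kidney subject of the study, as tubular epithelial cells. The labels give neither the silencing reagent, nor the dose or duration of TGF-β1, nor whether replicates are separate cultures. The p-values therefore measure the spread between these libraries, which may be technical. TGF-β1 and basal libraries stand in separate tables, and in every comparison across them an effect of the cytokine cannot be told apart from a difference between tables or experiments.

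Library totals were 17651213 to 18462872 estimated counts. Fh1 stood at 15.01, 13.7 and 13.8 CPM (counts scaled to library size, with TMM factors) in KD+TGF-β1 and at 49.6, 49.7 and 49.4 CPM in NC+TGF-β1 libraries, and at 28.6, 31.3 and 29.7 CPM in KD and 51.4, 53.9 and 53.5 CPM in NC libraries. Silenced and control libraries did not overlap in either setting. Fh1 was lowered further with TGF-β1 (mean 14.2 against 49.6 CPM) than in basal cells (mean 29.8 against 52.9 CPM). The comparisons of silencing in the 2 settings are thus not of equal depth, and the part of this in the results was not tested. Of 10 tubular epithelial markers, all were found in both tables and 9 were tested. Lrp2 (megalin), a defining receptor of the proximal tubule, had 0 to 13 counts in a library. The summed counts of the tubular markers were 98268 to 101182 in KD+TGF-β1, 91948 to 93467 in NC+TGF-β1, 68083 to 71932 in KD and 62714 to 67303 in NC libraries, and thus moved with TGF-β1 and with silencing. Their part in the results was not tested. Of 8 leukocyte and macrophage markers, 7 were found in both tables and 3 were tested. Their sums were 1897 to 2010, 2251 to 2306, 2390 to 2507 and 2459 to 2712 counts in the same order of groups. Most of these counts are Csf1r and Cd14, while the defining markers Ptprc, Adgre1 and Lyz2 had at most 9, 1 and 5 counts in a library. Summed fibroblast markers (6 of 8 in both tables, 1 tested) were low but higher with TGF-β1, at 108 to 124 counts in KD+TGF-β1, 105 to 135 in NC+TGF-β1, 16 to 23 in KD and 11 to 22 in NC libraries. Summed endothelial markers (3 of 5 in both tables, 1 tested) were 56 to 71, 49 to 64, 10 to 14 and 11 to 21 counts in the same order. Each of these 2 sums is mostly 1 gene. Col1a1 had 94 to 126 counts with TGF-β1 and 8 to 18 without, and Cdh5 had 45 to 68 and 8 to 20. Col1a2, Col3a1, Pdgfra, Pdgfrb and Dcn had at most 8 counts in a library, and Pecam1 and Tek at most 5. The part of these lists in the results was not tested either. KD+TGF-β1 replicate 1 held 328 counts of 9 pluripotency markers that were at 0 in the other libraries where they are listed, and results that rest on it are given with and without it.

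The cathepsins were unequally represented. Ctss (cathepsin S), typical of antigen-presenting cells, had 0, 1 and 3 counts in KD+TGF-β1, 1, 1 and 1 in NC+TGF-β1, 0, 5 and 2 in KD and 0, 0 and 0 in NC libraries, and was not tested. Ctsz (cathepsin Z) is listed with the TGF-β1 libraries only, at 6, 0 and 1 counts in KD+TGF-β1 and 0, 0 and 0 in NC+TGF-β1. At these depths no difference in either gene could be shown. On the per-length TPM scale (a length-scaled share of all transcripts), each role had the following member of highest mean level over the 12 libraries. Cd63 stood first among membrane proteins (1080.0 TPM), Ctsd among cathepsins (826 TPM) and Atp6v0c in V0 (533 TPM). Psap did so among the glycosidases and their helpers (502 TPM), Gabarap among ATG8 proteins (258 TPM) and Atp6v1e1 in V1 (163 TPM). Becn1 was highest among the genes of autophagosome formation (120.0 TPM) and Tfe3 among the transcription factors (35.8 TPM). Reads of Cd63 and Atp6v0c can be shared with the pseudogenes Cd63-ps, Atp6v0c-ps1 and Atp6v0c-ps2, and their levels are uncertain for that reason.

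The promoters of several members hold the element that TFEB and its relatives bind. RefSeq sequences of GRCm38.p6, from 250 bases before to 50 bases after the gene start, were at hand for 34 of the 41 members. The letters TCACGTG or their reverse complement CACGTGA were searched on both strands, and an 8-base TCACGTGA, which holds both, was counted as 1 match. A match was found in 10 of the 34 members (29.4%), against 7.06% of the 9373 tested genes with a promoter and 4.29% of all 27025 genes. The shorter core CACGTG was found in 12 of 34 members (35.3%), in 11.8% of the tested genes and in 8.09% of all genes. This element was described from promoters of human lysosomal genes, so its share in a list of such genes is not independent of how the list was made. Ctsd, Lamp1, Ctsa, Gla, Atp6v0d1 and Atp6v0e are shown because they hold the element and were called in 2 or 3 of the comparisons below (Atp6v1a, which also holds it and was called in 2, is not shown), with the matches in capitals, written 5′ to 3′ on the strand of the gene. They lie at Ctsd at chr7:142387778-142388077 (minus strand), Lamp1 at chr8:13158911-13159210 (plus strand), Ctsa at chr2:164833523-164833822 (plus strand), Gla at chrX:134600956-134601255 (minus strand), Atp6v0d1 at chr8:105566015-105566314 (minus strand), Atp6v0e at chr17:26676146-26676445 (plus strand).
Ctsd: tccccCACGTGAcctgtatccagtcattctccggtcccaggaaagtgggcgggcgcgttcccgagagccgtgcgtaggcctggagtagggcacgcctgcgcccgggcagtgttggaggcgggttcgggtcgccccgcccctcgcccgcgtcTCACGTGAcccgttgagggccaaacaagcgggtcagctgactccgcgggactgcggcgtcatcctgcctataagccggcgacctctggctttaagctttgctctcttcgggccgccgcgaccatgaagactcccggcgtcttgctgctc
Lamp1: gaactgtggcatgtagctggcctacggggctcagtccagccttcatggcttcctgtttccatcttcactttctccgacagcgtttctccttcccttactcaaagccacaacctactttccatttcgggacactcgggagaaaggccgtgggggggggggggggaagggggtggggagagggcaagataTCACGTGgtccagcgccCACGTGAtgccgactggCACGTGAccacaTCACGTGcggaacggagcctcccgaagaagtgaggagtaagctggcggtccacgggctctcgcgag
Ctsa: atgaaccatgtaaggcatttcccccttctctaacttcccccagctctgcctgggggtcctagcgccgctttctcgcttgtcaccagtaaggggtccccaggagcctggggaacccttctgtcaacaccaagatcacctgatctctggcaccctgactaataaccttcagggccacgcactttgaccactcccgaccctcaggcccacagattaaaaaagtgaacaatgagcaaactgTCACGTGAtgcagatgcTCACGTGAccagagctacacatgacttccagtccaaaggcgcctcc
Gla: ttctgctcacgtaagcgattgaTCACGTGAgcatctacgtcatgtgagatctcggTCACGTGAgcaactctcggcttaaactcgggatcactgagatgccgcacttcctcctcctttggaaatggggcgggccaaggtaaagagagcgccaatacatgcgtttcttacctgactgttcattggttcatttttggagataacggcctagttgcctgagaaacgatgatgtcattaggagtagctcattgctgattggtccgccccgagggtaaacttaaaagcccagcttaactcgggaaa
Atp6v0d1: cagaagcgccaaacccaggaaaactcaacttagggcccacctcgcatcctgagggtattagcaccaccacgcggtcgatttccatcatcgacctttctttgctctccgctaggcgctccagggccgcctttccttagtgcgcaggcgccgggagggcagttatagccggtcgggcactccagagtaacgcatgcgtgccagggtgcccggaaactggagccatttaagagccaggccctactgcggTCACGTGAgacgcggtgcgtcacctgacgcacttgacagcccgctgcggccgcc
Atp6v0e: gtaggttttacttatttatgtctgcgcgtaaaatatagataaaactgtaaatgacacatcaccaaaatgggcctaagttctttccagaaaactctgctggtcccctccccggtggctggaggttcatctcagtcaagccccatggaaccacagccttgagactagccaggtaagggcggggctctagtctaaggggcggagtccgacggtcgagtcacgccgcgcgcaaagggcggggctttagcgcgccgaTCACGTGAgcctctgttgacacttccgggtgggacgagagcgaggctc
The C of the core lies 245 and 98 bases before the start in Ctsd, 61, 45, 28 and 15 bases before it in Lamp1, and 227 and 194 bases before it in Gla. It lies 12 bases before and 5 bases after the start in Ctsa, 3 bases before it in Atp6v0d1 and 3 bases after it in Atp6v0e. A match describes letters in this window and shows neither binding nor a cause.

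Under TGF-β1, 7 members had slightly higher transcript levels in Fh1-silenced than in control cells, and 0 had lower ones. They were the protease Ctsd, the sialidase Neu1, the V0 subunit Atp6v0e, the ATG8 genes Map1lc3b and Gabarap, and Atg5 and Becn1, which act when an autophagosome forms. The changes were 1.08- to 1.14-fold. The 7 of 39 members called higher stand beside 5.42% of the 11707 genes tested, and the 0 called lower beside 6.02% (11.4% were called in either direction).

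Becn1 (Entrez 56208), beclin 1, a subunit of the lipid kinase complex that nucleates autophagosomes, had 119, 118 and 123 TPM in KD+TGF-β1, against 112, 108 and 108 TPM in NC+TGF-β1 libraries. The silenced libraries lay above all control libraries, by 0.13 on the log2 scale (SE 0.031, edgeR adjusted p = 0.013). Neu1 (18010), lysosomal sialidase, had 19.3, 18.6 and 17.99 TPM in KD+TGF-β1, against 15.8, 15.7 and 17.3 TPM in NC+TGF-β1. The groups did not overlap, and the log2 change was 0.19 (SE 0.047, edgeR adjusted p = 0.0188). Gabarap (56486), an ATG8 protein of late autophagosome steps, had 271, 273 and 269 TPM in KD+TGF-β1, against 252, 236 and 248 TPM in NC+TGF-β1. Again no library of one group reached the other (log2 change 0.14, SE 0.036, edgeR adjusted p = 0.0245).

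Ctsd (13033), the aspartic protease cathepsin D, had 761, 768 and 753 TPM in KD+TGF-β1, against 722, 649 and 710 TPM in NC+TGF-β1 libraries. The 3 silenced libraries were close to each other and above the more scattered controls (log2 change 0.13, SE 0.035, edgeR adjusted p = 0.0293). Atp6v0e (11974), a small V0 subunit, had 317, 338 and 325 TPM in KD+TGF-β1, against 302, 285 and 285 TPM in NC+TGF-β1. These groups did not overlap (0.16, SE 0.045, edgeR adjusted p = 0.0301). Map1lc3b (67443), the LC3B protein used to mark autophagosomes, had 109.9, 111 and 109.6 TPM in KD+TGF-β1, against 97.5, 102 and 105 TPM in NC+TGF-β1. It too was without overlap (0.11, SE 0.033, edgeR adjusted p = 0.0427). Atg5 (11793), part of the complex that attaches ATG8 proteins to lipid, had 36.3, 35.6 and 35.5 CPM in KD+TGF-β1, against 32.0, 32.1 and 30.7 CPM in NC+TGF-β1. Its groups were apart in CPM (0.18, SE 0.051, edgeR adjusted p = 0.0378), while in TPM they overlapped, at 28.6, 31.4 and 26.1 in KD+TGF-β1 against 26.1, 27.4 and 25.1 in NC+TGF-β1.

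**Figure D1:**
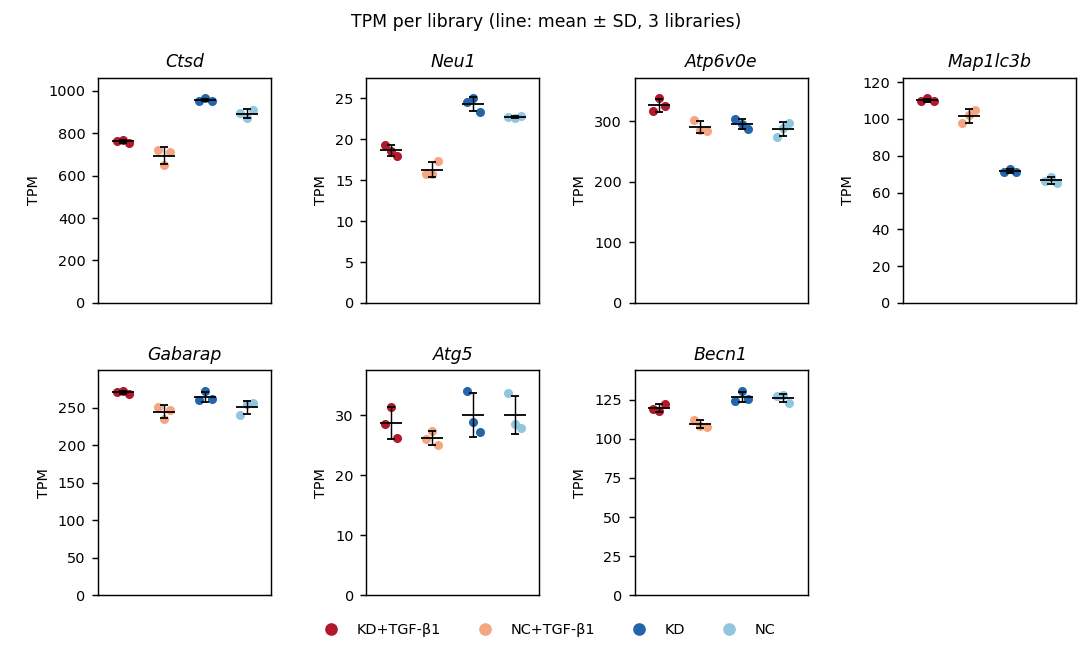
TPM of the 7 members called higher in KD+TGF-β1 against NC+TGF-β1, 1 panel per gene, 1 point per library, with a line at the mean and bars of 1 SD (3 libraries a group). Becn1 sits at 118 to 123 TPM in KD+TGF-β1 and at 108 to 112 TPM in NC+TGF-β1, and Atg5 is the 1 panel where these groups overlap in TPM.

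The other 32 members did not pass, with log2 changes of -0.23 to 0.16. The values nearest to the threshold were those of the V1 subunits Atp6v1b2 (0.13, edgeR adjusted p = 0.053) and Atp6v1a (0.15, edgeR adjusted p = 0.0611) and of Grn, progranulin (0.15, edgeR adjusted p = 0.0589). All 6 V1 subunits tested had a log2 value above 0, at 0.04 to 0.15. Tfeb (21425) had 5.16, 4.03 and 4.57 TPM in KD+TGF-β1 and 5.20, 5.37 and 5.40 TPM in NC+TGF-β1, so that every silenced library lay below every control (-0.23, SE 0.11, edgeR adjusted p = 0.215). Of its relatives, Tfe3 was at -0.0015 and Mitf at 0.11, and neither passed. Lamp1 and Lamp2, the abundant glycoproteins of the lysosomal membrane, were at 0.05 and 0.16 and did not pass (Lamp2 did, with an edgeR adjusted p of 0.00128, where only the 2 groups were fitted), nor did Cd63 (0.02), Psap (0.03), Atp6v0c (0.01) and Atp6v1e1 (0.08). By CPM, 14 members had no overlap with higher values in the silenced group and 1, Tfeb, with lower ones, against 16.5% and 15.7% of the genes tested. Over the 39 members, 31 log2 values were above 0, beside 5913 of the 11707 genes tested. The median of the members was 0.0519, beside 0.0015 over all genes tested.

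These calls rest on small differences, and leaving out any 1 library removed some of them. The calls over all genes tested also fell in such fits, from 1340 to 787 to 974. Leaving out a KD+TGF-β1 library turned the count of 7 into 2 (replicate 1), 2 (replicate 2) or 1 (replicate 3). Leaving out an NC+TGF-β1 library turned it into 6 (replicate 1), 2 (replicate 2) or 4 (replicate 3). DESeq2 called 2, Ctsd and Becn1. Ctsh was called lower without KD+TGF-β1 replicate 3 (-0.22, edgeR adjusted p = 0.0317). Without KD+TGF-β1 replicate 1, which held the pluripotency reads, Becn1 and Atp6v0e kept their call. Becn1 lost it in 1 of the 6 fits without a library (adjusted p = 0.0631 without KD+TGF-β1 replicate 3), Ctsd, Neu1 and Atp6v0e in 4 (adjusted p up to 0.102, 0.079 and 0.125), Gabarap and Map1lc3b in 5 (up to 0.0949 and 0.168) and Atg5 in all 6 (up to 0.127).

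In basal cells, silencing changed no member past the threshold: edgeR called 0 of 39 in either direction, DESeq2 and limma on TPM also called 0, and 4 (of 39) had an unadjusted p under 0.05 in edgeR, a smaller share than the 17.3% of all genes tested. For adjusted calls, the background was 3.66% of all genes tested, with 1.44% higher and 2.22% lower. The 4 were Ctsd (0.08), Map1lc3b (0.09), Ctsl (cathepsin L, -0.09) and Atp6v1h (-0.18), with edgeR adjusted p of 0.133 to 0.265. Ctsd had 952, 963 and 952 TPM in KD, against 895, 871 and 911 TPM in NC libraries, which did not overlap. Without NC replicate 3, 1 member was called higher (Ctsd, 0.13, edgeR adjusted p = 0.0452) and 1 lower (Atp6v1h, -0.26, edgeR adjusted p = 0.0278). Atp6v1h, the V1 subunit that regulates ATP hydrolysis, had 29.5, 29.4 and 30.4 TPM in KD, against 39.1, 33.4 and 28.6 TPM in NC, where replicate 1 was high and replicate 3 fell below all KD libraries.

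The factors themselves had no call. Tfeb had 10.7, 10.2 and 11.1 TPM in KD, against 10.1, 8.23 and 9.96 TPM in NC libraries, with no overlap (0.17, SE 0.088, edgeR adjusted p = 0.349). Tfe3 was at -0.06 and Mitf at -0.01. Lamp1 was at -0.03, Cd63 at 0.02, Psap at -0.04, Atp6v0c at -0.13, Atp6v1e1 at 0.06, Gabarap at 0.06 and Becn1 at -0.05, and none passed. Lamp2 had 123, 129 and 133 TPM in KD, against 161, 123 and 112 TPM in NC libraries. The NC spread comes from the transcript NM_010685, at 4510.5 counts in NC replicate 1 against 3030.1 and 2535 in replicates 2 and 3, and Lamp2 was at -0.09 (SE 0.12) with and at 0.13 (edgeR adjusted p = 0.17) without that library. By CPM, 3 members were higher and 4 lower without overlap, beside 10.4% and 12.3% of the genes tested.

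**Figure D2:**
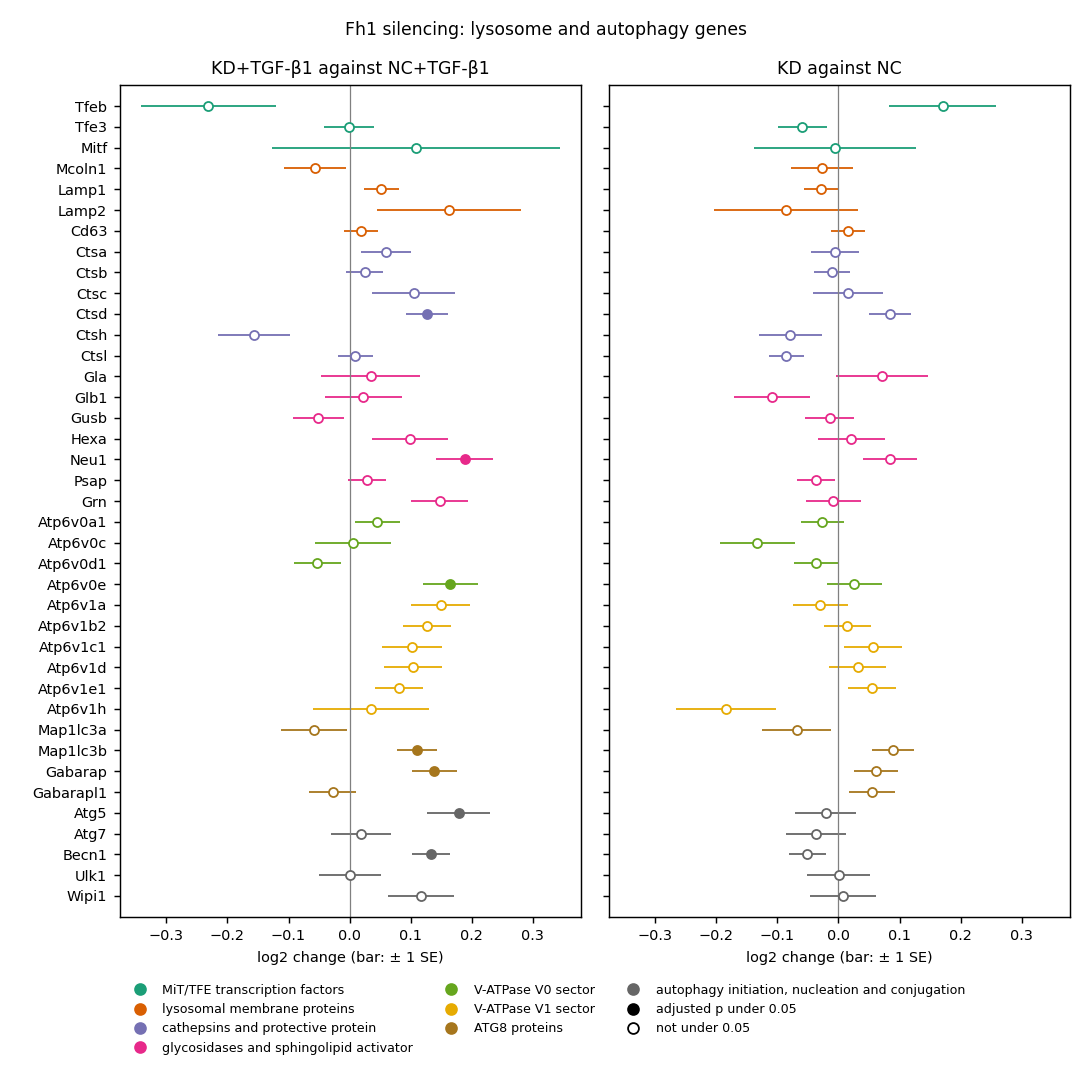
Log2 change with Fh1 silencing of the 39 members tested, in TGF-β1 libraries (left) and basal libraries (right), as points with bars of 1 SE, coloured by role and filled where the edgeR adjusted p is under 0.05. The left panel has 7 filled points, all above 0, and the right panel has 0.

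The difference between the effects of silencing in the 2 settings passed the threshold for 0 of 39 members by edgeR, beside 0.888% of the genes tested (0.47% higher, 0.419% lower). DESeq2 and limma also called 0, and 7 members had an unadjusted p under 0.05 in edgeR, 6 of them with a larger value in TGF-β1 libraries, beside 1326 of all 11707 genes (11.3%), of which 695 had the larger value there. The smallest adjusted p was that of Becn1, with a difference of 0.18 (SE 0.043, edgeR adjusted p = 0.0745). Tfeb had the most negative value, -0.40 (SE 0.14, edgeR adjusted p = 0.267). A call with TGF-β1 and none in basal cells is therefore not a shown difference between the settings for any of the 7 genes. The settings also differ in how far Fh1 was lowered, as given above.

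TGF-β1 went with far larger changes than silencing, mostly downward in this set. In silenced cells 10 of 39 members were called higher and 20 lower, beside 31.4% and 33.7% of the genes tested (65.1% in either direction). In control cells 7 were called higher and 21 lower, beside 29.4% and 34.7% (64.2% in either direction). The median log2 change of the members was -0.116 in silenced and -0.189 in control cells, beside -0.014 and -0.0323 over all genes. In bulk RNA, fewer cells with a transcript and less of it per cell cannot be told apart. The comparison in silenced cells shares no library with that in control cells: 7 members were called higher in both, 19 lower in both and 7 in neither. The share of all genes tested called alike in both was not counted, so these counts have no background beside them. Both comparisons also hold the same difference between tables, and each shares libraries with the comparisons of silencing.

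Among the transcription factors, Mitf and Tfeb were lower with TGF-β1 while Tfe3, the most abundant of them, was not called. Mitf (17342), best known from pigment cells and osteoclasts, had 0.470, 0.440 and 0.700 TPM in KD+TGF-β1, against 1.94, 2.60 and 2.33 TPM in KD libraries. In control cells it had 0.550, 0.530 and 0.410 TPM with TGF-β1, against 2.03, 2.45 and 2.32 TPM without. The groups were far apart on a low level (log2 change -2.10, SE 0.17, in silenced and -2.22, SE 0.18, in control cells, edgeR adjusted p = 1.12e-07 and 7.94e-08). Transcripts listed with the basal libraries only held 5.12% of its basal counts, and with transcripts of both tables alone its call held. Tfeb had the TPM values given above, and its log2 change was -1.22 (SE 0.099) in silenced and -0.82 (SE 0.098) in control cells (edgeR adjusted p = 8.61e-08 and 5.14e-06), with no overlap in either. Tfe3 had 34.9, 35.0 and 35.4 TPM in KD+TGF-β1 against 35.5, 36.1 and 36.8 TPM in KD, and 34.9, 33.1 and 36.6 TPM in NC+TGF-β1 against 37.2, 36.1 and 38.3 TPM in NC libraries (log2 change -0.03 and -0.08, edgeR adjusted p = 0.596 and 0.0881). Without NC replicate 2 or NC+TGF-β1 replicate 3 its value in control cells passed (edgeR adjusted p down to 0.0329).

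The cathepsins did not move as one. Of 6 tested, 5 fell and Ctsl rose, in silenced and in control cells alike. Ctsc (13032), cathepsin C, which activates serine proteases of granules, had 350.0, 354 and 318 estimated counts in KD+TGF-β1, against 733, 688 and 659 in KD libraries. In control cells it had 340.0, 312 and 300.0 counts with TGF-β1, against 676, 677 and 669 without. In counts the groups lay far apart, at -0.94 (SE 0.062) in silenced and -1.03 (SE 0.063) in control cells (edgeR adjusted p = 8.67e-09 and 3.78e-09). In TPM the silenced cells were more scattered, at 10.56, 16.5 and 9.33 in KD+TGF-β1 against 26.65, 24.19 and 19.86 in KD libraries. Control cells had 10.49, 8.94 and 8.59 TPM with TGF-β1 against 19.53, 21.78 and 25.85 TPM without. No TGF-β1 library of Ctsc reached a basal one. Ctsh (13036), an aminopeptidase, had 25.2, 23.6 and 27.8 TPM in KD+TGF-β1 against 49.4, 47.1 and 48.8 TPM in KD, and 28.8, 26.9 and 29.4 TPM in NC+TGF-β1 against 50.7, 51.2 and 50.0 TPM in NC libraries. Its libraries were far from overlapping (-0.92 and -0.84, edgeR adjusted p = 3.67e-09 and 8.1e-09).

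Ctsd fell less. With the KD+TGF-β1 and NC+TGF-β1 values above set against 952, 963 and 952 TPM in KD and 895, 871 and 911 TPM in NC libraries, its log2 change was -0.33 and -0.37 (edgeR adjusted p = 1.32e-06 and 3.9e-07). Ctsa, the protective protein that stabilises Neu1 and the lysosomal β-galactosidase, was at -0.39 and -0.46, and Ctsb (cathepsin B), at -0.15 and -0.19, fell least (edgeR adjusted p = 0.000398 in silenced and 6.98e-05 in control cells for Ctsb). The gene model of Ctsb overlaps Fdft1 by 774 bases and that of Ctsa overlaps Pltp by 1515 bases, and whether the counting used strand is not given in the sources used here. Against this, Ctsl (13039), the cysteine protease cathepsin L, had 919, 905 and 925 TPM in KD+TGF-β1 against 606, 627 and 599 TPM in KD libraries. In control cells it had 894, 936 and 892 TPM with TGF-β1 against 635, 652 and 639 TPM without. All TGF-β1 libraries lay above all basal ones (0.59, SE 0.029, in silenced and 0.50, SE 0.029, in control cells, edgeR adjusted p = 3.4e-10 and 2.24e-09). The summed TPM of the 7 cathepsin genes listed in both tables were nevertheless close, at 1966 to 1981 in KD+TGF-β1 against 1927 to 1977 in KD, and at 1860.4 to 1903 in NC+TGF-β1 against 1906 to 1930.0 in NC libraries.

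**Figure D3:**
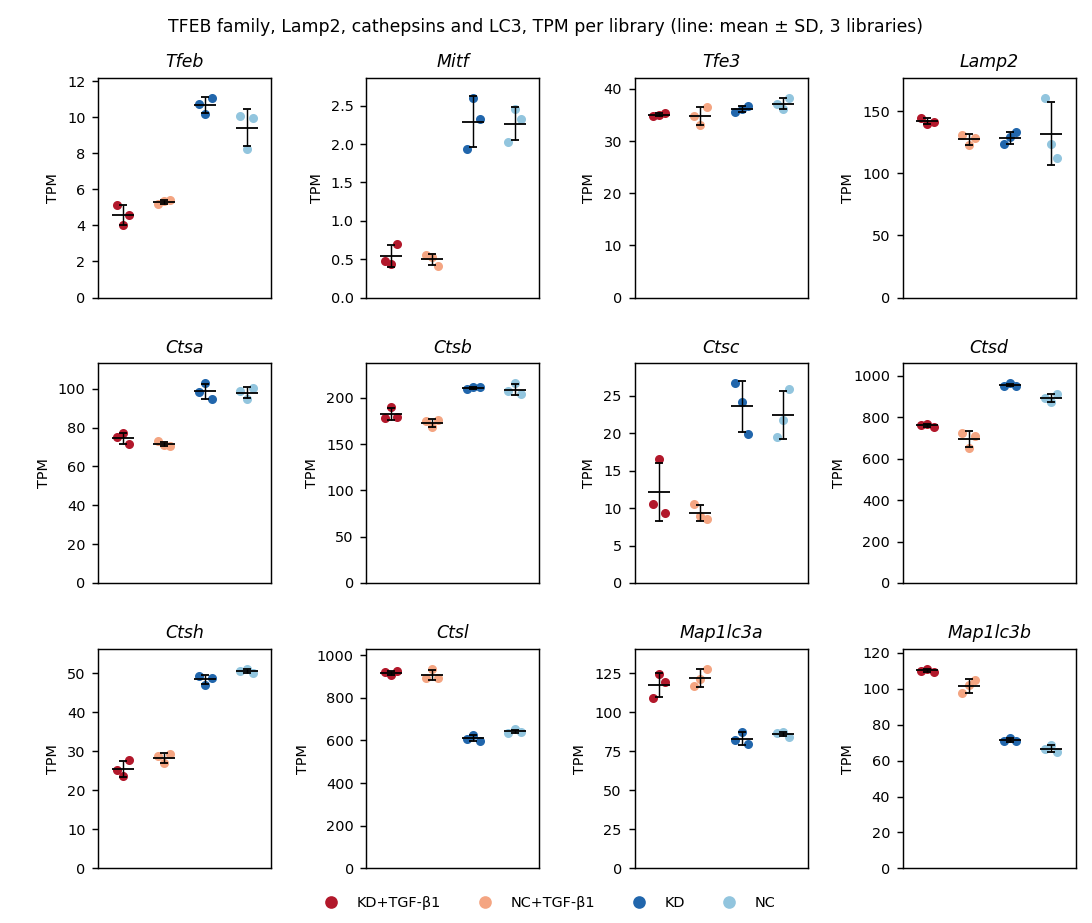
TPM of the 3 MiT/TFE factors, Lamp2, the 6 tested cathepsin genes and both LC3 genes, 1 panel per gene and 1 point per library, with a line at the mean and bars of 1 SD (3 libraries a group). TGF-β1 libraries lie below basal ones for Tfeb, Mitf, Ctsc, Ctsh and Ctsd and above them for Ctsl, Map1lc3a and Map1lc3b, and NC replicate 1 of Lamp2 stands at 161 TPM.

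Of the 7 glycosidases and helpers, 5 fell in silenced and in control cells, Psap rose and Glb1, β-galactosidase, was not called. Hexa, the α subunit of β-hexosaminidase, was at -0.65 in silenced and -0.73 in control cells (edgeR adjusted p = 2.33e-07 and 8.38e-08). Neu1 was at -0.39 and -0.49 and Gusb, β-glucuronidase, at -0.36 and -0.33. Gla, α-galactosidase A, was at -0.34 and -0.30, and Grn at -0.23 and -0.39. The edgeR adjusted p of these 4 genes were at most 0.00397. Psap (19156), the precursor of the saposins that present sphingolipids to hydrolases, had 545, 542 and 540.4 TPM in KD+TGF-β1 against 462, 477 and 453 TPM in KD, and 550.4, 503 and 535 TPM in NC+TGF-β1 against 460.3, 478 and 476 TPM in NC libraries. It was higher in every TGF-β1 library (0.22 and 0.16, edgeR adjusted p = 1.91e-05 and 0.000446).

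The membrane proteins were divided as well. Lamp1 (16783) had 429, 428 and 419 TPM in KD+TGF-β1 against 465, 465 and 453 TPM in KD, and 417, 404 and 405 TPM in NC+TGF-β1 against 463, 456 and 477 TPM in NC libraries. TGF-β1 libraries were lower without overlap (-0.12 and -0.20, edgeR adjusted p = 0.00259 and 3.3e-05). Cd63 (12512), a tetraspanin of late endosomes and exosomes, had 1155, 1152 and 1194 TPM in KD+TGF-β1 against 1003, 1013 and 1005 TPM in KD, and 1130.0, 1164 and 1150.3 TPM in NC+TGF-β1 against 984, 1009 and 959.5 TPM in NC libraries. It was higher without overlap (0.23 in both, edgeR adjusted p = 4.05e-06 and 4.79e-06). Lamp2 was at 0.15 in silenced cells (edgeR adjusted p = 0.271) (0.0014 where only the 2 groups were fitted) and at -0.10 in control cells (edgeR adjusted p = 0.49), a control value that turned to 0.12 (edgeR adjusted p = 0.0443) without NC replicate 1. Mcoln1, the lysosomal calcium channel TRPML1, was at -0.08 and -0.05 and did not pass.

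Within the proton pump, the subunits moved in different directions. Of the 6 V1 subunits, 4 fell in silenced and in control cells, and Atp6v1e1 rose in both. Atp6v1a (11964), the catalytic A subunit, had 46.7, 41.7 and 45.6 TPM in KD+TGF-β1 against 69.2, 71.6 and 71.4 TPM in KD libraries. In control cells it had 39.8, 41.8 and 38.7 TPM with TGF-β1 against 75.1, 71.8 and 67.8 TPM without. There was no overlap (-0.67, SE 0.046, in silenced and -0.85, SE 0.047, in control cells, edgeR adjusted p = 1.63e-08 and 1.42e-09). Atp6v1h (108664) had 18.4, 18.1 and 16.5 TPM in KD+TGF-β1 and 17.0, 17.1 and 17.5 TPM in NC+TGF-β1, below all of the basal values given above (-0.77 and -0.99, edgeR adjusted p = 3.32e-06 and 2.36e-07). Without NC replicate 1 its value in control cells was -0.87.

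Atp6v1b2, the B subunit that pairs with A, had 75.3, 73.8 and 71.6 TPM in KD+TGF-β1 against 65.8, 70.1 and 65.2 TPM in KD, and 69.9, 63.1 and 68.3 TPM in NC+TGF-β1 against 66.4, 67.7 and 63.1 TPM in NC libraries. It was called higher in silenced cells (0.13, edgeR adjusted p = 0.00845) and was at 0.02 in control cells (edgeR adjusted p = 0.665). Atp6v1e1, a stalk subunit, was at 0.23 in silenced and 0.20 in control cells (edgeR adjusted p = 0.000145 and 0.000428), and Atp6v1c1 (-0.28 and -0.33) and Atp6v1d (-0.12 and -0.19), of the stalk and the rotor, were lower. Atp6v1d was the least firm of these, losing its call in silenced cells in 5 of 6 fits without a library (adjusted p up to 0.156) and in 3 of 8 other settings (up to 0.168) and in control cells without NC replicate 3 (adjusted p = 0.0638). In V0, Atp6v0a1, the large membrane subunit, had 41.3, 38.6 and 39.8 TPM in KD+TGF-β1 against 62.0, 59.4 and 61.7 TPM in KD, and 40.2, 40.7 and 39.7 TPM in NC+TGF-β1 against 63.0, 59.0 and 60.7 TPM in NC libraries. No library of one setting reached the other (-0.62 and -0.69, edgeR adjusted p = 2.01e-09 and 6.54e-10).

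Atp6v0d1, which links V0 to the stalk, was at -0.12 and -0.11 (edgeR adjusted p = 0.011 and 0.0244). It lost its call in control cells in 3 of 6 fits without a library (adjusted p up to 0.205: NC replicates 1 and 3 and NC+TGF-β1 replicate 3) and in silenced cells without KD+TGF-β1 replicate 1 (adjusted p = 0.0607). Both calls of Atp6v0d1 were also lost with DESeq2 (adjusted p = 0.108 in silenced and 0.261 in control cells). Atp6v0e was called higher in silenced cells (0.17, edgeR adjusted p = 0.00394) and was at 0.03 in control cells (edgeR adjusted p = 0.542). Atp6v0c, the proteolipid of the rotor ring, was at 0.0005 in silenced cells (edgeR adjusted p = 0.995) and at -0.14 in control cells (edgeR adjusted p = 0.0672), a value that passed without NC replicate 1 (edgeR adjusted p = 0.0312) and with a replicate block (edgeR adjusted p = 0.0329).

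**Figure D4:**
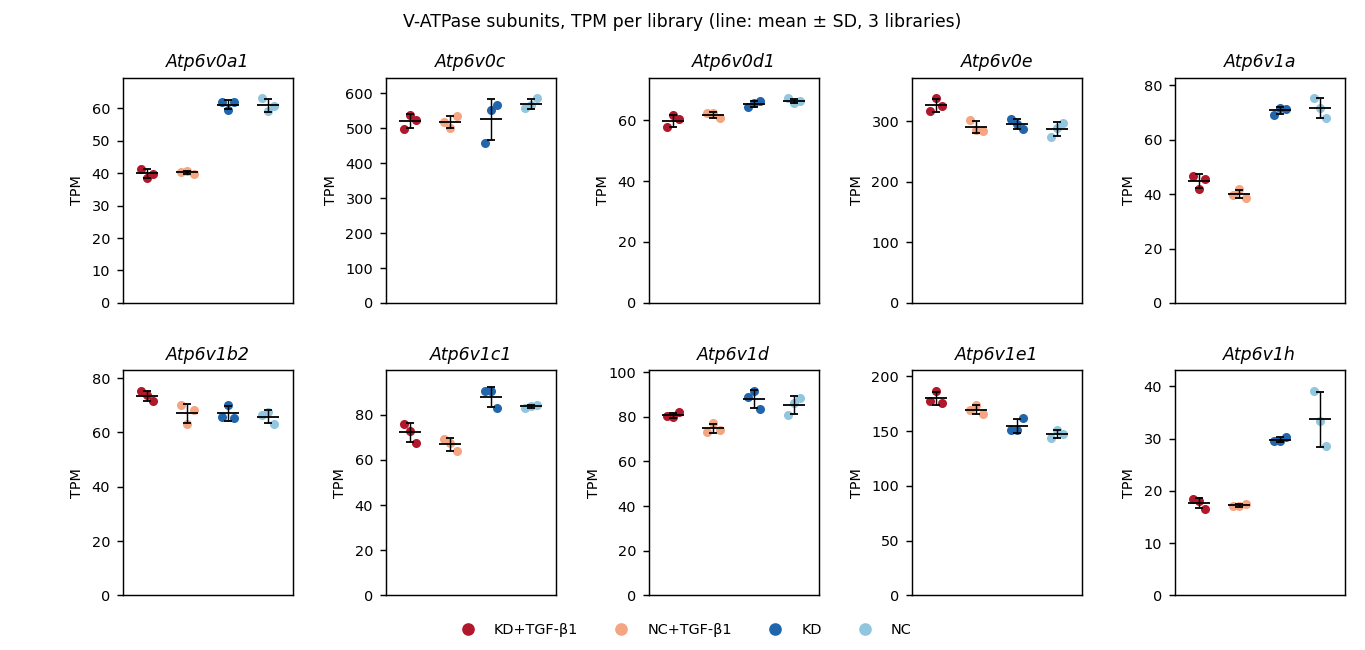
TPM of the 10 V-ATPase subunits among the members, 4 of sector V0 and 6 of sector V1, 1 panel per gene and 1 point per library, with a line at the mean and bars of 1 SD (3 libraries a group). TGF-β1 libraries lie well below basal ones for Atp6v0a1, Atp6v1a and Atp6v1h and above them for Atp6v1e1.

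Of the ATG8 genes, both LC3 genes rose with TGF-β1 and the GABARAP genes did not. Map1lc3b had, beside the TGF-β1 values above, 70.9, 72.7 and 71.1 TPM in KD and 66.3, 68.7 and 65.0 TPM in NC libraries. TGF-β1 libraries were all higher, at a log2 change of 0.62 (SE 0.033) in silenced and 0.60 (SE 0.034) in control cells (edgeR adjusted p = 9.8e-10 and 1.58e-09). Its gene model overlaps that of Zcchc14 by 64 bases. Map1lc3a (66734), LC3A, had 109.0, 125 and 119 TPM in KD+TGF-β1 against 82.1, 87.6 and 79.6 TPM in KD, and 117, 121 and 128 TPM in NC+TGF-β1 against 86.9, 87.1 and 84.5 TPM in NC libraries. It rose without overlap (0.52 and 0.51, edgeR adjusted p = 1.67e-06 and 2e-06). Gabarap was at 0.05 and -0.03 and did not pass, and Gabarapl1 was lower in silenced cells (-0.17, edgeR adjusted p = 0.0012) and at -0.09 in control cells (edgeR adjusted p = 0.052).

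Of the genes of autophagosome formation, Ulk1, the kinase that mTORC1 restrains, rose in both (0.20 and 0.20, edgeR adjusted p = 0.00368 and 0.00395). Becn1 and Atg5 fell with TGF-β1 in control cells (-0.22 and -0.22, edgeR adjusted p = 2.71e-05 and 0.00185) and were at -0.03 and -0.02 in silenced cells (edgeR adjusted p = 0.384 and 0.773). The call of Atg5 was lost with limma on TPM (adjusted p up to 0.123). Becn1 stood at 125, 124 and 129 CPM in KD+TGF-β1 against 127, 129 and 131 CPM in KD, and at 118, 113 and 114 CPM in NC+TGF-β1 against 135, 135 and 132 CPM in NC libraries. In control cells the settings did not overlap, and in silenced cells they did. The test of that difference is the interaction above, which passed for neither gene. Wipi1, a phosphoinositide-binding protein of the forming autophagosome, was called higher in silenced cells (0.13, edgeR adjusted p = 0.0464; up to 0.212 and lost in 4 of 6 fits without a library and in 4 of 8 other settings) and was at 0.02 in control cells. Atg7, the activating enzyme of ATG8 lipidation, was at 0.09 and 0.04 and did not pass. The calls in silenced cells were 30, of which 3 (Atp6v0d1, Atp6v1d and Wipi1) were lost without KD+TGF-β1 replicate 1.

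By CPM, TGF-β1 libraries lay wholly above basal ones for 12 members and wholly below for 21 in silenced cells (35.0% and 37.9% of the genes tested), and for 7 and 23 in control cells (30.2% and 35.7%). Of the 28 calls in control cells, at most 2 were lost without any 1 library. The shares of members called lower, 20 and 21 of 39, are above the background of each comparison, and those called higher are below it. This describes a list chosen with results known and carries no test.

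**Figure D5:**
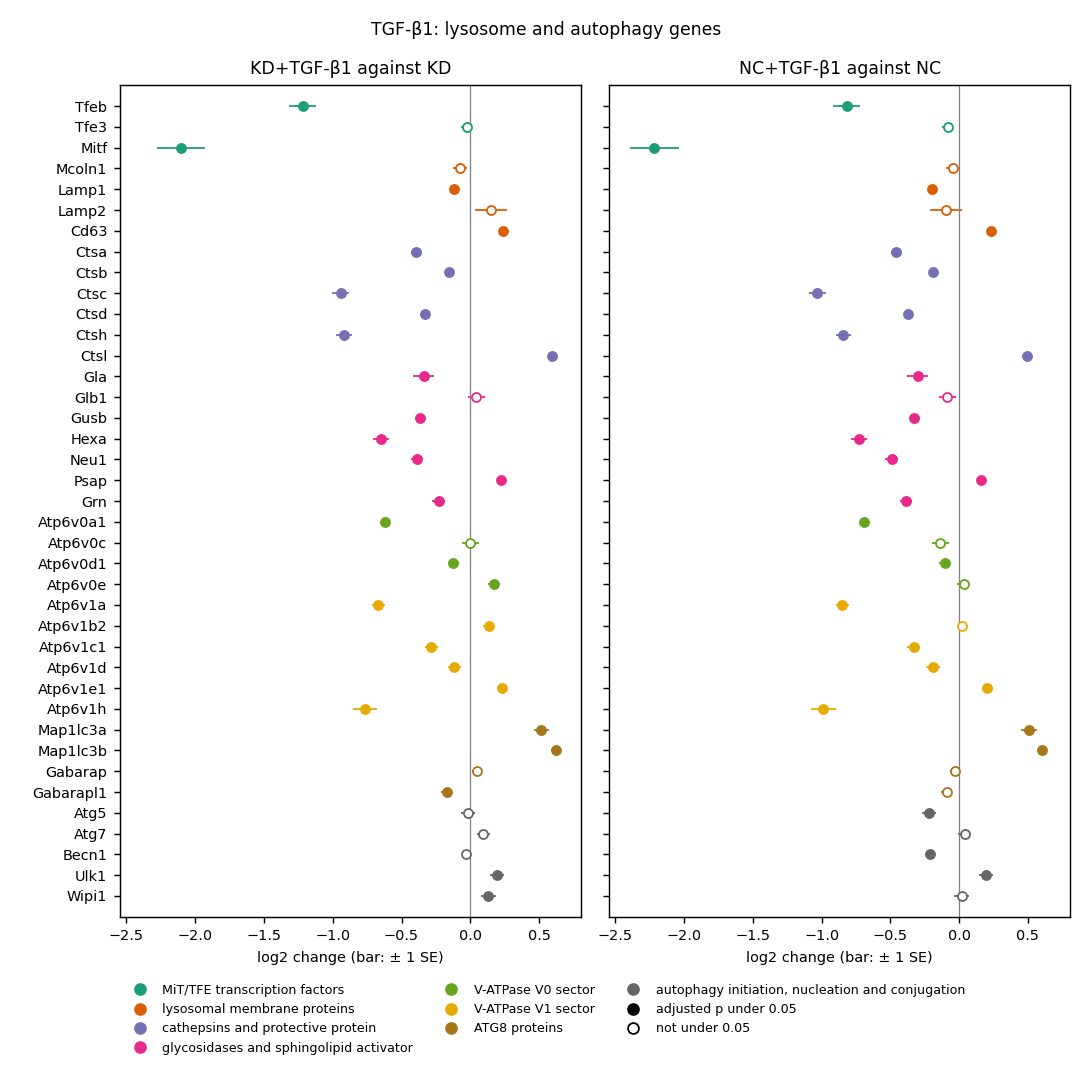
Log2 change with TGF-β1 of the 39 members tested, in silenced cells (left) and control cells (right), as points with bars of 1 SE, coloured by role and filled where the edgeR adjusted p is under 0.05. Mitf lies furthest to the left in both panels, at -2.10 and -2.22, and Ctsl, Map1lc3a and Map1lc3b lie furthest to the right.

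Other genes of the same machinery gave the following counts. With silencing in TGF-β1 libraries, of 10 tested further V-ATPase subunits and accessory proteins 2 rose and 0 fell, of 36 further hydrolases 2 rose and 2 fell, of 22 further membrane proteins 3 rose and 0 fell, and of 18 sorting genes 4 rose and 0 fell. Of 31 further autophagy genes 6 rose and 2 fell, of 12 autophagy receptors 2 rose and 0 fell, and of 24 genes of mTORC1 and TFEB control 2 rose and 1 fell. These counts are to be read beside 5.42% higher and 6.02% lower over all genes tested, and the hydrolases (5.56% in each direction) were near that share. Most of these counts changed when a library was left out. Without KD+TGF-β1 replicate 1, the genes called higher were 0 V-ATPase genes, 1 hydrolase, 0 membrane proteins, 3 sorting genes, 5 autophagy genes, 1 receptor and 0 genes of mTORC1 and TFEB control. Over all fits without a library, the membrane proteins called higher were 0 to 1, the V-ATPase genes 0 to 2, the autophagy genes 3 to 6 and the sorting genes 3 to 4. In basal cells the same lists had 0 and 0, 0 and 2, 0 and 0, 3 and 0, 1 and 1, 0 and 0, and 1 and 1 genes higher and lower, beside 1.44% and 2.22% of all genes tested. With only the 2 groups fitted, the 3 sorting genes and the 2 hydrolases became 0 and 0, and without a library they were 1 to 3 and 0 to 2. The change with the smallest p was that of Sqstm1, the receptor p62 that carries ubiquitinated cargo into autophagosomes and is also a target of NRF2. It had 568, 592 and 580.0 TPM in KD+TGF-β1 against 433, 424 and 434 TPM in NC+TGF-β1, and 613, 597 and 601 TPM in KD against 549.9, 564 and 571 TPM in NC libraries. NC+TGF-β1 libraries lay below all others, and the ranges of KD+TGF-β1 and NC libraries overlapped. Silencing with TGF-β1 gave a log2 change of 0.43 (edgeR adjusted p = 7.43e-07), TGF-β1 in control cells gave -0.39 (edgeR adjusted p = 2.75e-08), and the interaction was 0.34 (edgeR adjusted p = 0.0013), the 1 interaction called in these 7 lists. In basal cells Sqstm1 did not pass with silencing. There 0 of the 12 receptors were called, at log2 changes of -0.10 to 0.09.

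Some sorting genes rose with silencing in both settings. Both mannose 6-phosphate receptors, which carry hydrolases to the lysosome, were among them: M6pr was at 0.17 with TGF-β1 and 0.15 in basal cells, and Igf2r at 0.23 and 0.17. The adaptor Gga3 was at 0.20 and 0.21. Their edgeR adjusted p were at most 0.00574 with TGF-β1 and at most 0.0214 in basal cells, where each lost its call without 1 to 3 of the libraries in turn (adjusted p up to 0.108). The basal calls of all 3 were also lost with only the 2 groups fitted (adjusted p up to 0.126). Atg101, of the ULK1 complex, fell in both (-0.48 and -0.25, edgeR adjusted p = 0.000132 and 0.0208), as did Smpd1, acid sphingomyelinase (-0.25 and -0.19, edgeR adjusted p = 0.00268 and 0.0283). In basal cells their calls were lost in 4 and 5 of 6 fits without a library, and in 4 and 6 of 8 other settings.

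With TGF-β1, 19 of 36 further hydrolases were lower and 5 higher in silenced cells, and 23 lower and 5 higher in control cells. Over all genes tested, 33.7% were lower and 31.4% higher in silenced cells, and 34.7% and 29.4% in control cells. Of 22 further membrane proteins, 14 were lower and 1 higher in each. Sgsh, sulfamidase, was at -1.65 in silenced and -1.52 in control cells and Galc, galactosylceramidase, at -0.88 and -1.04. Ctsw (cathepsin W), a protease known from cytotoxic lymphocytes, had 145, 149 and 142 TPM in KD+TGF-β1 against 8.02, 6.54 and 6.03 TPM in KD, and 137, 136 and 131 TPM in NC+TGF-β1 against 7.89, 5.21 and 5.78 TPM in NC libraries. Its log2 change of 4.43 and 4.31 (edgeR adjusted p = 4.3e-15 and 7.12e-15) stands far outside the range of the members, and its gene model overlaps Fibp by 10 bases. Atp6v1g1, a V1 stalk subunit, was at 1.20 in silenced and 1.13 in control cells (edgeR adjusted p = 9.18e-12 and 1.94e-11), opposite to the A and H subunits of the same sector. For the other lists, the V-ATPase genes had 5 higher and 3 lower of 10 in silenced and 4 and 2 in control cells, sorting genes 7 and 10 of 18, and 6 and 7, autophagy genes 11 and 10 of 31, and 8 and 9, receptors 3 and 5 of 12, and 3 and 7, and mTORC1 and TFEB control 5 and 9 of 24, and 5 and 12. The autophagy genes, at 35.5% higher and 32.3% lower in silenced and 25.8% and 29.0% in control cells, were near the shares over all genes. Without KD+TGF-β1 replicate 1, those lower in silenced cells were 7 sorting genes, 2 V-ATPase genes, 11 autophagy genes and 5 receptors. They were also 8 genes of mTORC1 and TFEB control, 19 hydrolases and 13 membrane proteins. The hydrolases called higher became 4, and the counts higher of the other lists stayed. Sorting genes lower were 6 to 9 over all fits without a library and 5 to 10 under other settings.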

How the data were processed

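RNA of 12 libraries was measured. Per the submitters' processing notes, RSEM 1.3.1, Bowtie2, HISAT2 and DESeq2 1.34.0 were used, in roles not given, with the human build hg38, although the organism is mouse and the transcripts are mouse RefSeq entries. The authors deposited an expected count (the reads estimated to come from a transcript) and a TPM value for each transcript, per the file headers, with basal and TGF-β1 libraries in a table each. Both values were summed per Entrez gene here, and the sums of expected counts were rounded.

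Genes listed in both tables and kept by filterByExpr (11707) were fitted with edgeR 4.0.16 (R 4.3.3; TMM factors 0.978 to 1.02; quasi-likelihood test, all 4 groups, 8 residual degrees of freedom). A gene was called where its p, adjusted over all genes tested by Benjamini-Hochberg, was under 0.05. The biological coefficient of variation was 4.6%. Groups without overlap were judged on CPM. The test was checked on simulated data with changes larger than those of the members called with silencing, so the check does not cover calls that small. Alternatives were DESeq2 1.42.0, its size factors in edgeR, no low-count filter, a replicate block, limma 3.58.1 on log2(TPM + 1) and log2(TPM + 0.1), only the 2 groups compared, and each library left out. A fit on transcripts listed in both tables was added after seeing the data.

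The members and lists were chosen with earlier results of these data known. Named in any case were the MiT/TFE factors, Lamp1, Lamp2 and the member of highest mean TPM in each role. Otherwise called members were named, with up to 4 called genes of smallest p from each other list. Promoters shown hold TCACGTG or CACGTGA and belong to members called in the most comparisons, at most 6.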

Additional observations from a re-analysis of the deposited data

Results flagged for a closer look

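In Tfeb and Becn1, the effect of silencing ran in opposite directions in the TGF-β1 and basal libraries, with every library of one group beyond every library of the other in each setting by CPM. Over all genes tested, 16.5% were higher and 15.7% lower without overlap with TGF-β1, and 10.4% and 12.3% in basal cells. The share that did so in opposite directions was not counted. For Tfeb the groups were narrowly apart. Its nearest libraries were at 6.86 (KD+TGF-β1) and 7.07 (NC+TGF-β1) CPM, and at 13.70 (KD) and 13.62 (NC) CPM. For Tfeb, the log2 change with silencing was -0.23 with TGF-β1 and 0.17 in basal cells, and the difference was -0.40 (edgeR adjusted p = 0.267 over all genes tested). For Becn1, it was 0.13 with TGF-β1 and -0.05 in basal cells, and the difference was 0.18 (edgeR adjusted p = 0.0745). In TPM the basal groups of Becn1 overlapped, and its basal value was 0.008 with limma on TPM, so that the opposite direction was not seen there. Neither difference passed the threshold, and for Becn1 the adjusted p was 0.0768 to 0.4 under other settings and 0.0822 to 0.208 without 1 library. For Tfeb it was 0.258 to 0.34 and 0.116 to 0.457.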

How the results depend on the processing

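The count of 7 members higher with silencing in TGF-β1 libraries was the least stable result. It was 2 with DESeq2, 4 and 4 with limma on log2(TPM + 1) and log2(TPM + 0.1), 11 with only the 2 groups compared, and 1 to 6 with each library left out, while members lower were 0 to 1 (Ctsh). In basal cells, members higher were 0 to 1 and members lower 0 to 1 with each library left out. Over all genes, silencing with TGF-β1 gave 1340 calls, 871 with DESeq2 and 787 to 974 without 1 library. Basal silencing gave 429, 280.0 with limma on log2(TPM + 0.1), 151 with only the 2 groups compared and 212 to 641 without 1 library. The interaction gave 104, 54 with the replicate block, 43 and 35 with limma on log2(TPM + 1) and log2(TPM + 0.1), and 38 to 147 without 1 library. Of the named values of members, 0 of the 65 called and 16 of the 42 not called changed sign under some setting, and 1 of these 16 was called after the change: Lamp2 with TGF-β1 in control cells, at -0.10 with all libraries and at -0.19 to 0.12 with each left out (0.12 without NC replicate 1). The causes were not tested. After the group mean of each gene was subtracted from its log CPM, the remainders of same-numbered replicates correlated at -0.0972 to 0.0728. None was over 0.1, so the numbers were not taken to pair the libraries. The replicate block lost 2 of 7 calls of silencing with TGF-β1 (Atp6v0e and Map1lc3b), 0 of 28 of TGF-β1 in control cells, where it added Atp6v0c, and 1 of 30 in silenced cells (Wipi1). With 3 libraries a group, small changes of low transcripts such as Mitf (20 to 141 counts) are imprecise.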
